A study of Homo sapiens with 2 samples.

Results

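The genes described here encode the retinoid X receptors and the nuclear receptors that pair with them. They are RXRA and RXRB, the retinoic acid receptors RARA, RARB and RARG, the vitamin D receptor VDR, the liver X receptors NR1H2 and NR1H3, and the peroxisome proliferator-activated receptors PPARD and PPARG. They were chosen by gene symbol after RXRA had been seen to be higher in FZR1 ko, so every level and ratio given for them is a description and supports nothing. All 10 had a value, out of 23033 genes with a value. The data are 1 RNAseq library of control cells and 1 of FZR1 ko cells. Each carries the label T-47D, the name of a luminal breast cancer line, and a cisplatin dose of 2 µg/ml, and cisplatin is a drug that cross-links DNA. The labels call the control WT. FZR1 encodes an activator of the anaphase-promoting complex, the ubiquitin ligase of mitosis and G1. The FZR1 ko line was made by lentiviral CRISPR/Cas9 and derived from single cells, so the knockout and the features of a single clone cannot be told apart. There was 1 library per condition, no test could be made, and cells without cisplatin were not analysed here.

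FPKM counts fragments scaled to transcript length and to all mapped fragments, so levels of different genes can be compared per length, but it holds no read numbers and the depth behind each value is unknown. Each difference is the log2 ratio of FPKM + 1, FZR1 ko over control, on which scale low genes differ by less than they do in FPKM. A gene was kept when it had at least 1 FPKM in at least 1 library, which 13554 genes did, and their median log2 ratio was -0.0048. FZR1 itself had 12.3 FPKM in control against 10.1 in FZR1 ko (log2 ratio -0.26), which does not check the labels, because small insertions or deletions can leave an mRNA in place. Of 15 luminal markers, 6 were below 1 FPKM in both libraries, among them ESR1, PGR, GATA3 and CDH1, so the label T-47D was not borne out by these defining genes. Among markers kept, 2 of 9 luminal and 2 of 9 mesenchymal or basal genes were at least 2-fold higher in FZR1 ko, and 6.78% of all genes kept were. The summed level of the luminal list was 1507 FPKM in control against 1859 in FZR1 ko, and that of the mesenchymal and basal list was 434 and 454 FPKM. In the luminal list the keratins KRT8 and KRT18 alone summed to 1382 and 1738 FPKM, and the other 13 genes to 125 and 120 FPKM. In the mesenchymal and basal list VIM alone had 315 and 295 FPKM. Of the 9 genes kept in that list, 5 were higher in FZR1 ko and 4 lower. TWIST1 (0.18 and 1.16 FPKM), among the 5, was kept only through FZR1 ko. The part of these markers in the receptor values was not tested. In bulk RNA, fewer cells of a type and less RNA per cell cannot be told apart.

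Retinoid X receptors are ligand-activated transcription factors that bind DNA mostly as the shared member of a heterodimer. The partner decides the ligand that is read: retinoic acid for RAR, active vitamin D for VDR, oxysterols for LXR, and fatty acids and their derivatives for PPAR. The pairs bind direct repeats of a short core word, and the number of bases between the repeats helps to choose the pair. Without ligand many of these pairs hold corepressors on the gene, and ligand exchanges them for coactivators. In breast epithelial cells retinoic acid and vitamin D are best known for slowing growth.

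The promoter windows of the receptors whose levels differed most, RXRA, PPARG and NR1H3, are shown to set their sequence beside their values, and a window of RARB because it holds the only repeat found in a receptor window. For each of the first 3 genes only the window at the outermost annotated start is shown. RefSeq (GRCh38.p14) promoter windows of 300 bases, from 250 bases before to 50 bases after an annotated start, were found for 9 of the 10 receptors, 24 windows in all. VDR was the receptor without a window. Without a pseudocount VDR differed by more (log2 ratio -1.36) than PPARG (1.29) and NR1H3 (0.97). The words AGGTCA or AGTTCA or GGGTCA or GGTTCA were searched on both strands, and each match is in capitals. The windows below read 5′ to 3′ on the strand of the gene.
RXRA, chr9:134326205-134326504, plus strand: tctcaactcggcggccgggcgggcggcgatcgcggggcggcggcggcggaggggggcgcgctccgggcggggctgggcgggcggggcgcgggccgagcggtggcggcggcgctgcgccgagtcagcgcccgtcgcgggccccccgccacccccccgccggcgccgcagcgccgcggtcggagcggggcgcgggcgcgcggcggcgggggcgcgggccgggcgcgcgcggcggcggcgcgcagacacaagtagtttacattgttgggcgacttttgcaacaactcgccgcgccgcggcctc
PPARG, chr3:12287118-12287417, plus strand: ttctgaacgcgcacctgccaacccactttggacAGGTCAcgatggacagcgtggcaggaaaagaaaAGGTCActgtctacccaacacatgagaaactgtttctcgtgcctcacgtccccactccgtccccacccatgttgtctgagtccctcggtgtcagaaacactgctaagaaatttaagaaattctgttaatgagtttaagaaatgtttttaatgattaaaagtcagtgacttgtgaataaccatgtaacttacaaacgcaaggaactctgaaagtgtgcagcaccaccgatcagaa
NR1H3, chr11:47248050-47248349, plus strand: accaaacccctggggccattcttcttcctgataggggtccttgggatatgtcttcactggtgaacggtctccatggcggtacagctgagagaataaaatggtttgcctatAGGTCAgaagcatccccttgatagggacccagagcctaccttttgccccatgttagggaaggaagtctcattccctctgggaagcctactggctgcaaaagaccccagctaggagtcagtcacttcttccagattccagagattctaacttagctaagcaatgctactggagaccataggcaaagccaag
RARB, chr3:25428013-25428312, plus strand: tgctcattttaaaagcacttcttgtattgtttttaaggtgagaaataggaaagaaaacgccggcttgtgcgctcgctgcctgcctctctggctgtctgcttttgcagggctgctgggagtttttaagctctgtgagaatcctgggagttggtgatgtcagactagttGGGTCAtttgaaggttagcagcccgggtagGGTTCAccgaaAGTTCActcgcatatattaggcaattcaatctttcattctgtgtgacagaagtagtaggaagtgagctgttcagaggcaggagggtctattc

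At least 1 of the words was found in 12 of the 24 receptor windows, and in 38.6% of all 35116 windows. The RXRA window at the gene start is 84.0% G and C and held none of them, which says only that these letters are not in this window. The other RXRA window, chr9:134379045-134379344, held 1, GGGTCA. The PPARG window shown is 45.0% G and C and held 2, and the NR1H3 window shown held 1. Of all the windows of these genes, 4 of 6 for PPARG, some of which overlap, and 3 of 4 for NR1H3 held at least 1. A direct repeat of the words on the same strand, with 1 to 5 bases between them, was found in 1 of the 24 windows and in 144 of all 35116 (0.410%). It lies in 1 of the 4 RARB windows, at an internal start of the gene, on chromosome 3 from 25428210 to 25428226, and reads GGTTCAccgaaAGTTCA, with the 5 bases between the words in lower case. Its first base is at position -53 from that start. The window at the outermost RARB start held none of the words. A repeat with a spacing of 5 bases, the spacing known for RAR with RXR, was found in 31 of all windows (0.0883%). RARB is a textbook target of retinoic acid through such an element. A match is a description of letters, and gene-level FPKM does not show which start was used.

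RXRA, which encodes RXRα, lies on the plus strand of chromosome 9 from 134326455 to 134440585. It had 14.8 FPKM in control against 40.4 in FZR1 ko, a ratio of 2.74 without a pseudocount and a log2 ratio of 1.39. Of the 13554 genes kept, 306 had a log2 ratio at least as high. In level RXRA stood above 60.9% of the genes kept in control and above 83.2% in FZR1 ko. RXRB, which encodes RXRβ, lies on the minus strand of chromosome 6 from 33193588 to 33200853. Its level was 43.8 FPKM in control against 34.5 in FZR1 ko, a log2 ratio of -0.33. Its exons share 9.26% of their bases with SLC39A7 on the other strand, which had 127 and 111 FPKM, so some RXRB reads are uncertain. The 2 retinoid X receptors therefore differed in opposite directions between the libraries. The third, RXRG, was near absent, listed at 0 in control and at 0.03 FPKM in FZR1 ko. The sum over the RXR genes was 58.5 FPKM in control against 74.9 in FZR1 ko, 1.28 times as much. Within that sum RXRA held 25.2% in control and 53.9% in FZR1 ko, so the order of RXRA and RXRB was turned round.

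Of the 9 receptors kept, 5 were higher and 4 lower in FZR1 ko, and their median log2 ratio was 0.05. RXRA and PPARG were the 2 receptors at least 2-fold higher, and 6.78% of all genes kept were. No receptor was at least 2-fold lower, against 6.72% of all genes kept. Since the receptors were chosen on this contrast, nothing is read from these counts. PPARG, with a log2 ratio of 1.20, lay just inside the 2-fold limit, and NR1H3, with 0.93, and VDR, with -0.89, lay just outside it.

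**Figure D1:**
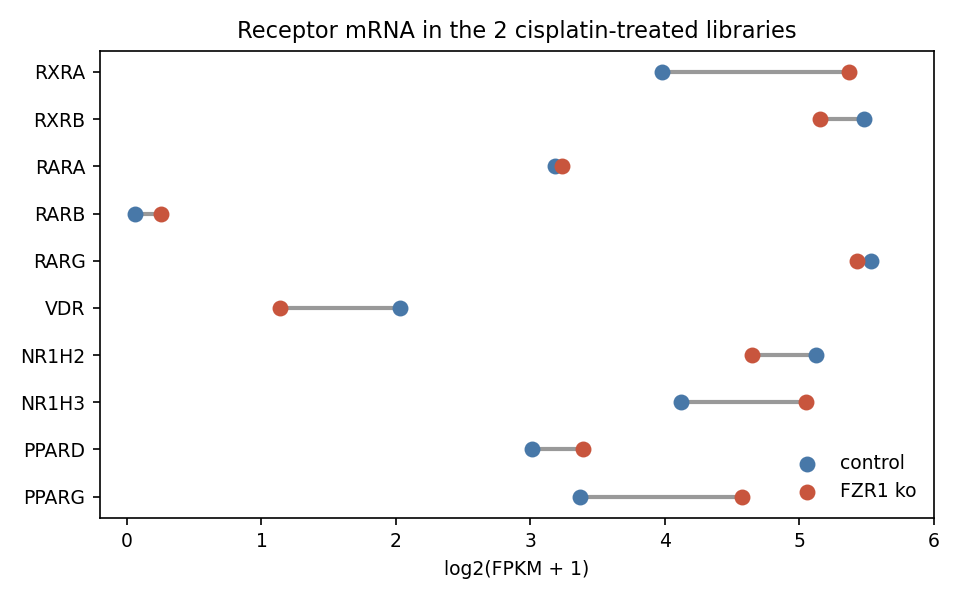
Level of each receptor as log2(FPKM + 1) in the control library (blue) and the FZR1 ko library (red), with 1 library per condition and no error bars. RXRA, PPARG and NR1H3 lie further right in FZR1 ko, VDR lies further left, and RARA and RARG nearly coincide.

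RARA, RARB and RARG encode the receptors of all-trans retinoic acid. RARG was the most abundant of the 10 receptors in each library, at 45.2 FPKM in control against 42.2 in FZR1 ko (log2 ratio -0.10). It lies on the minus strand of chromosome 12 from 53210569 to 53232209. RARA, on the plus strand of chromosome 17 from 40309180 to 40357643, had 8.10 and 8.41 FPKM (0.05). Its exons share 11.7% of their bases with RARA-AS1 on the other strand, which had 1.91 FPKM in control against 0.77 in FZR1 ko, and as the use of strand in the counting is not stated, their reads cannot be told apart there. RARB spans chromosome 3 from 24829321 to 25597932 on the plus strand. It had 0.04 FPKM in control against 0.19 in FZR1 ko and was below 1 FPKM in both, so it was the only receptor that was not kept. The RAR sum was 53.3 FPKM in control against 50.8 in FZR1 ko, and RARG held 84.7% and 83.1% of it. In both libraries, then, retinoic acid receptor mRNA was mainly RARG.

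Genes that take up, make and break down retinoids were mostly lower in FZR1 ko where they were kept. Of 16 listed, 8 were kept, of which 7 were lower and 1 was higher, with a median log2 ratio of -0.53, while 49.6% of all genes kept were higher. With no filter on low values the median was -0.19. CYP26B1, an enzyme that degrades retinoic acid and is itself induced by it, had 16.6 FPKM in control against 2.78 in FZR1 ko (log2 ratio -2.22). It was the 1 gene of the 8 at least 2-fold lower, against 6.72% of all genes kept, and none was at least 2-fold higher. RETSAT, a retinol saturase, had 64.5 and 37.6 FPKM (-0.76). STRA6, the membrane receptor for retinol-binding protein, had 16.7 and 9.36 FPKM (-0.77). ALDH1A3, which makes retinoic acid from retinaldehyde, had 18.6 and 12.5 FPKM (-0.54), and its exons share 32.1% of their bases with ALDH1A3-AS1 on the other strand. ALDH1A1 and ALDH1A2, which also make retinoic acid, were listed at 0 in both libraries. CRABP2, which carries retinoic acid to the nucleus, had 23.2 and 16.0 FPKM (-0.51). DHRS3, which turns retinaldehyde back into retinol, was the gene that was higher, with 3.44 and 6.77 FPKM (0.81).

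Retinoic acid target genes went both ways. Of 12 listed, 8 were kept, with 4 higher and 4 lower in FZR1 ko and a median log2 ratio of -0.02. Of them CYP26B1, DHRS3, STRA6 and CRABP2 are also in the retinoid list above. TGM2, a transglutaminase induced by retinoids, had 29.6 FPKM in control against 40.6 in FZR1 ko (0.44). CYP26A1, the best-known retinoic acid target among the CYP26 genes, was below 1 FPKM in both, at 0.08 and 0.21 FPKM.

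VDR encodes the vitamin D receptor and lies on the minus strand of chromosome 12 from 47841537 to 47904994. It had 3.09 FPKM in control against 1.20 in FZR1 ko, a ratio of 0.388 without a pseudocount and a log2 ratio of -0.89. It was the lowest of the 9 receptors kept in each library. Because the level is low, the pseudocount weighs on this ratio. With a pseudocount of 0.1 FPKM the log2 ratio was -1.30, past the 2-fold limit, and with 5 FPKM it was -0.38. Of 13 genes of vitamin D metabolism and response, 10 had a value and only 3 were kept, all of them lower in FZR1 ko, while 49.6% of all genes kept were higher. Among the 3, CD14 was kept only through its control value, so it could count only as lower. Of these 3, 2 were at least 2-fold lower, against 6.72% of all genes kept. Their median log2 ratio was -1.26, and with no filter on low values it was -0.081. CYP27B1, which makes the active hormone, had 8.04 and 1.90 FPKM (log2 ratio -1.64). IGFBP3, an insulin-like growth factor binding protein that vitamin D induces, had 40.5 and 16.4 FPKM (-1.26). CD14, a coreceptor for bacterial lipopolysaccharide, had 1.05 and 0.11 FPKM (-0.89). CYP24A1, which degrades the hormone and is strongly induced by VDR, had 0.31 and 0.09 FPKM. TRPV6, CAMP and THBD were listed at 0 in both libraries.

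The liver X receptors sense oxysterols and control sterol efflux and fatty acid synthesis. NR1H3 encodes LXRα and lies on the plus strand of chromosome 11 from 47248300 to 47269033. It had 16.4 FPKM in control against 32.2 in FZR1 ko, a ratio of 1.96 without a pseudocount. NR1H2 encodes LXRβ and lies on the plus strand of chromosome 19 from 50376457 to 50383388. Its level was 33.8 and 24.1 FPKM, a log2 ratio of -0.47. As with the RXR genes, one paralogue was higher in FZR1 ko and the other lower. The LXR sum was 50.2 FPKM in control against 56.3 in FZR1 ko, and NR1H3 held 32.7% of it in control and 57.2% in FZR1 ko. Exons of NR1H2 share 22.1% of their bases with NAPSA on the other strand, but NAPSA had 0.08 FPKM in control and 0 in the other library. NR1H3 shares 4.17% with ACP2 on the other strand, which had 51.0 and 59.5 FPKM, so some NR1H3 reads are uncertain.

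LXR target genes also went both ways. Of 15 listed, 9 were kept, with 6 higher and 3 lower in FZR1 ko and a median log2 ratio of 0.11. MYLIP, which marks the LDL receptor for degradation, had 11.6 FPKM in control against 4.63 in FZR1 ko (-1.16). APOE, an apolipoprotein, had 2.23 and 0.18 FPKM (-1.45). Those were the 2 genes at least 2-fold lower, and none was at least 2-fold higher, against 6.72% and 6.78% of all genes kept. APOE was kept only through control, so it could count only as lower. FASN, the fatty acid synthase, had 50.03 and 88.7 FPKM (0.81, or 0.27 with the trend of ratios by transcript length and GC content removed). SREBF1, which controls fatty acid synthesis, had 21.9 and 29.7 FPKM (0.42, or 0.27 with that trend removed). ABCG1, a sterol exporter, had 2.22 and 1.04 FPKM (-0.66). ABCA1, another sterol exporter and a classical LXR target, was below 1 FPKM in both, at 0.20 and 0.22 FPKM.

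**Figure D2:**
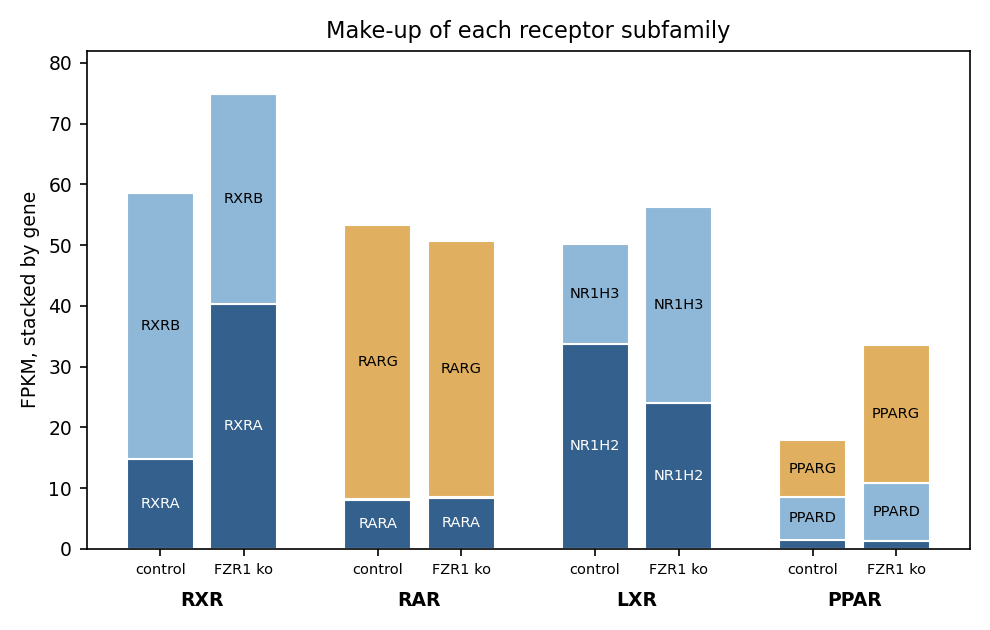
FPKM of the genes of each receptor subfamily, stacked, in the control and FZR1 ko libraries (1 library each, so no error bars; the unlabelled dark base of PPAR is PPARA). RXRA takes 25.2% of the RXR sum in control and 53.9% in FZR1 ko, NR1H3 takes 32.7% and 57.2% of the LXR sum, RARG takes 84.7% and 83.1% of the RAR sum, and the PPAR sum goes from 17.9 to 33.6 FPKM.

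PPARG encodes PPARγ, the master factor of fat cells, which is also found in epithelial tumours, and PPARD encodes the broadly expressed PPARδ. PPARG lies on the plus strand of chromosome 3 from 12287368 to 12434344. It had 9.34 FPKM in control against 22.8 in FZR1 ko, a ratio of 2.44 without a pseudocount. PPARD lies on the plus strand of chromosome 6 from 35342558 to 35428178. It had 7.06 and 9.50 FPKM, a log2 ratio of 0.38. PPARA, the form of liver and muscle, had 1.47 and 1.34 FPKM (-0.08). The PPAR sum was 17.9 FPKM in control against 33.6 in FZR1 ko, 1.88 times as much. PPARG made up 52.3% of it in control and 67.7% in FZR1 ko. Of the subfamilies, PPAR differed most in the ratio of its sums and RAR least in its make-up. In FPKM the RXR sum, 58.5 in control against 74.9 in FZR1 ko, differed by slightly more than the PPAR sum.

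Of 17 PPAR target genes, 9 were kept, with 6 higher and 3 lower in FZR1 ko and a median log2 ratio of 0.17. CPT1A, the gatekeeper of fatty acid entry into mitochondria, had 13.8 FPKM in control against 30.8 in FZR1 ko (1.11). FABP3, a fatty acid binding protein, had 21.1 and 37.8 FPKM (0.81). SLC25A20, the carnitine carrier of mitochondria, had 6.0 and 9.87 FPKM (0.63). PLIN2, a coat protein of lipid droplets, had 54.0 and 22.1 FPKM (-1.25). ANGPTL4, an inhibitor of lipoprotein lipase, had 15.2 and 7.17 FPKM (-0.98). Higher genes here were thus of fatty acid oxidation and transport, and the lower ones included a lipid droplet gene and a secreted factor. FABP4, a fatty acid binding protein of fat cells, was listed at 0 in both libraries, and CD36 and ADIPOQ were below 1 FPKM in both.

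In order of level, control had RARG, RXRB, NR1H2, NR1H3, RXRA, PPARG, RARA, PPARD, VDR and RARB. In FZR1 ko the order was RARG, RXRA, RXRB, NR1H3, NR1H2, PPARG, PPARD, RARA, VDR and RARB. With 1 library per condition there is no spread to say which neighbours in these orders differ. RXRA and RXRB together had 0.476 FPKM for each FPKM of their 8 partners in control and 0.533 in FZR1 ko. The 3 protein-coding genes with levels nearest to RXRA in both libraries, by the distance of their log2(FPKM + 1), were CHLSN (15.4 and 40.3 FPKM), BLVRA (15.8 and 39.2 FPKM) and SLC25A23 (13.6 and 38.0 FPKM). This likeness rests on 2 libraries.

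Of 9 further receptors that can pair with RXR, 5 were kept, with 2 higher and 3 lower in FZR1 ko and a median log2 ratio of -0.08. The median of so few genes moved with the processing, to -0.56 when each library had to reach 1 FPKM, and to -0.49 with the trend of transcript length and GC content removed. NR4A1 and NR4A2, orphan receptors that respond quickly to stimuli, were the 2 of these 5 at least 2-fold lower, against 6.72% of all genes kept. NR4A1, whose exons share 10.3% of their bases with NR4A1AS on the other strand, had 140 FPKM in control against 68.0 in FZR1 ko (-1.03), and NR4A2 had 17.5 and 3.78 FPKM (-1.95). THRA, a thyroid hormone receptor, had 6.05 and 10.9 FPKM (0.75), and THRB had 0.25 and 1.23 FPKM (0.84). THRB was kept only through FZR1 ko, so it could count only as higher. NR1H4, NR1I2 and NR1I3, which sense bile acids and foreign compounds, were below 1 FPKM in both libraries.

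**Figure D3:**
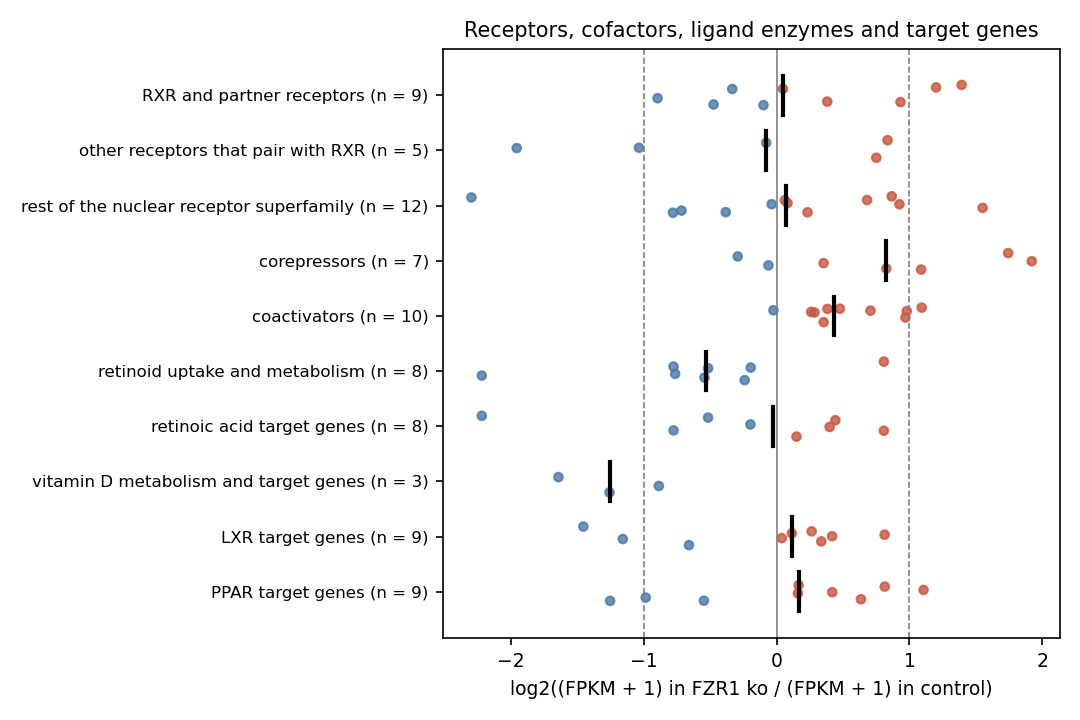
The log2 ratio of FZR1 ko to control, on the FPKM + 1 scale, for the genes kept in each list; points are genes (red higher and blue lower in FZR1 ko), black bars are list medians and dashed lines mark 2-fold. Corepressors lie mostly right of 0 (median 0.83), genes of retinoid uptake and metabolism mostly left (median -0.53), and the receptors spread to both sides (median 0.05).

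Corepressors and coactivators of these receptors mostly had the higher value in FZR1 ko, whereas 49.6% of all genes kept did. At least 2-fold higher were 3 of 7 corepressors and 1 of 10 coactivators kept, and 6.78% of all genes kept. All 7 corepressor genes were kept, with 5 higher and 2 lower and a median log2 ratio of 0.83. NCOR1, the scaffold of a corepressor complex, had 3.71 FPKM in control against 9.01 in FZR1 ko (1.09). TBL1X, a subunit of the same complex, had 1.86 and 9.82 FPKM (1.92), and HDAC3, its histone deacetylase, had 28.7 and 37.0 FPKM (0.35). GPS2, another subunit, had 63.4 and 51.6 FPKM (-0.29), and 44.7% of its exon bases are shared with another protein-coding gene on the same strand, so its reads are uncertain. Of 12 coactivator genes, 10 were kept, with 9 higher and 1 lower and a median of 0.43. Of the 10, NCOA1 (0.25 and 1.04 FPKM), NCOA2 (0.43 and 1.82 FPKM) and PPARGC1A reached 1 FPKM only in FZR1 ko. The filter therefore let these genes count only as higher. Among coactivators with at least 1 FPKM in both libraries the median was 0.35. Only PPARGC1A, a coactivator of PPARγ, was at least 2-fold higher, with 0.52 and 2.24 FPKM (1.09). CARM1, an arginine methyltransferase, had 14.8 and 30.0 FPKM (0.97), and its exons share 20.2% of their bases with YIPF2 on the other strand. EP300, a histone acetyltransferase, had 9.65 and 12.9 FPKM (0.38).

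Transcript length moved with the ratio across all genes. The tenth of genes kept with the shortest transcripts had a median log2 ratio of -0.13, and the tenth with the longest, from 7518 bases, had one of 0.30. The median longest transcript was 7751 bases for the corepressors and 8049 bases for the coactivators, against 3592 bases for the receptors and 3491 bases for all genes kept. With the trend of length and GC content removed, the coactivator median was 0.15 and the corepressor median 0.66. Of the coactivators 7 were then higher and 3 lower, with EP300 at -0.01, MED1 at -0.02 and CREBBP at -0.03, and of the corepressors 5 were higher and 2 lower. TBL1X then had 1.75, NCOR1 0.78 and HDAC3 0.55. PPARA, at 10118 bases, then had -0.49, and THRB, at 7576 bases, had 0.53. For the receptors the same step gave 1.16 for RXRA, 1.18 for PPARG, 1.01 for NR1H3 and -0.97 for VDR. The part of RNA quality in the length trend was not tested.

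**Figure D4:**
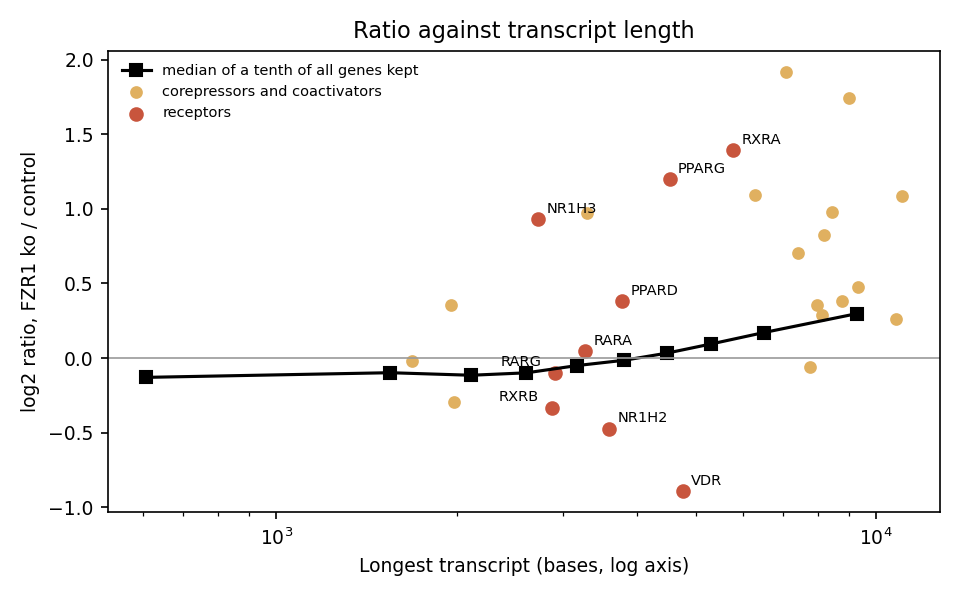
The log2 ratio of FZR1 ko to control against the longest transcript of each gene (log axis, bases), for the 9 receptors kept (red), corepressors and coactivators (yellow), and the medians of 10 equal groups of all genes kept by length, at their median length (black). The black line rises from -0.13 to 0.30, and RXRA (1.39), PPARG (1.20), NR1H3 (0.93) and VDR (-0.89) lie well off it.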

How the data were processed

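Total RNA of both lines was sequenced on the BGISEQ-500 platform. According to the methods, the authors aligned reads to the transcriptome with Bowtie2 and quantified them with RSEM, on an hg38 reference of UCSC. The submitters' processing notes list Trimmomatic 0.36, HISAT2 2.1.0, Bowtie2 2.2.5 and RSEM. The deposited table gives FPKM to 2 decimals, keyed by Entrez gene ID. The version of the gene annotation, filters and strandedness are not given in the sources used here. Of 24663 rows, 1630 had no value, and 22925 of the other 23033 genes matched a symbol of RefSeq (GRCh38.p14, the hg38 build).

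Log2 ratios used a pseudocount of 1 FPKM. No test was made, and no replicate was available. The receptors and all gene lists were chosen with earlier results of these data known, the lists from general knowledge. The genes named are all receptors, list members at least 2-fold different, highly expressed or near 0, the 3 genes nearest to RXRA, and FZR1. Some further list members, such as THRA, HDAC3 and GPS2, were named after their values were seen, and the values of some others are not reported here. Transcript length and GC content are those of the longest GENCODE 44 transcript, found for 97.0% of genes kept, and the trend removed was the median of 10 by 10 quantile groups. Ratio, call and word search were tested on simulated data. Python 3.11.15, numpy 2.4.6, pandas 2.3.3 and matplotlib 3.10.9 were used.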

Additional observations from a re-analysis of the deposited data

How the results depend on the processing

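No paired analysis was possible because control and FZR1 ko have only 1 library each. No replicate could be left out either. Removing the length and GC trend, and leaving out the pseudocount among genes with at least 1 FPKM in each library, were chosen after seeing the data. Of 87 receptor ratios under the 9 alternatives, 80 lay on the same side of the fold limit. Changing only the filter on low values leaves a receptor's ratio as it was. Those ratios among the 80 were fixed in advance and show nothing of stability. Scaling and centring shifted ratios by too little to turn a receptor's direction or move it across the limit (RARA, the nearest to 0 of the 9 kept, went from 0.048 to 0.054 and 0.053), so they show nothing of stability. RXRA ranged from 1.16 to 1.45, and with a 3-fold limit neither RXRA (1.39) nor PPARG (1.20) passed, leaving 0 receptors. A pseudocount of 5 FPKM left 1 receptor at least 2-fold higher, as PPARG had 0.95. With it 8 other named genes also fell inside the 2-fold limit: NCOR1 (0.69), PPARGC1A (0.39), CYP27B1 (-0.92), MYLIP (-0.78), APOE (-0.48), CPT1A (0.93), NR4A1 (-0.99) and HNF4A (0.62). With a pseudocount of 0.1 FPKM, VDR (-1.30) passed, the 1 receptor at least 2-fold lower, and RARB, below 1 FPKM in both libraries, had 1.05. Without a pseudocount VDR had -1.36, again the 1 such receptor, and with 5 FPKM it had -0.38. With the length and GC trend removed NR1H3 had 1.01. All genes at least 2-fold higher numbered 919, and 1460 with a pseudocount of 0.1 FPKM, 183 with 5 FPKM and 174 at 3-fold. Those lower numbered 911, and 1358 with 0.1 FPKM, 270 with 5 FPKM and 229 at 3-fold.

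Of 80 list medians under alternatives, 68 stayed within 0.2 of their value. The corepressor median was 1.07 with a pseudocount of 0.1 FPKM, 0.41 with 5 FPKM and 1.11 without one, among genes of at least 1 FPKM in each library. The coactivator median was 0.15 with the length and GC trend removed. The vitamin D list, with 3 genes kept and a median of -1.26, had -2.03 with 0.1 FPKM, -0.92 with 5 FPKM and -0.081 with no filter on low values. It had -1.69 without a pseudocount, where the filter left out CD14. The retinoid median was -0.19 with no filter, as genes near 0 entered. The other receptors that pair with RXR had a median of -0.56 with at least 1 FPKM in both libraries, -0.59 without a pseudocount and -0.49 with the trend removed. The read numbers behind the FPKM values are unknown, so no counting error could be given for any gene.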

Other observations

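Of the 29 remaining genes of the nuclear receptor superfamily, 28 had a value and 12 were kept, with 7 higher and 5 lower in FZR1 ko and a median log2 ratio of 0.07. NR1D1, a repressor of the circadian clock, had 32.9 FPKM in control against 5.90 in FZR1 ko (-2.29). Its relative NR1D2 had 17.9 and 10.5 FPKM (-0.71). Exons of NR1D1 share 18.0% of their bases with THRA on the other strand, so part of the reads of NR1D1 and THRA is uncertain. HNF4A, a factor of liver and gut epithelium, had 0.55 and 3.54 FPKM (1.55), and was the 1 gene of these 12 at least 2-fold higher, against 6.78% of all genes kept. With a pseudocount of 5 FPKM its log2 ratio was 0.62, below the 2-fold limit. NR3C1, the glucocorticoid receptor, had 5.28 and 10.5 FPKM (0.87), and NR2F6, an orphan receptor, had 53.1 and 85.7 FPKM (0.68). ESRRA, an orphan receptor of energy metabolism, had 41.2 and 40.2 FPKM (-0.04). PGR, ESR1 and NR3C2, receptors of steroid hormones, were below 1 FPKM in both libraries.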
